A study of Mus musculus with 6 samples.

Results

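The complement genes described here are C1qa, C1qb, C1qc, C4b, C3, C3ar1, C5ar1 and Serping1, which are 8 of the 19465 genes counted in every spot of the series. They were chosen by symbol, and each symbol matched 1 row in every section. Formalin-fixed, paraffin-embedded coronal brain sections of untreated male C57BL/6J mice were profiled with 10x Genomics Visium, in which gene probes hybridized to the tissue are captured on a grid of barcoded spots and counted as unique molecular identifiers (UMIs). There were 2 sections per age and 6 in all, at postnatal day 21 (P21, pups bred from the same strain), in adults (12 to 15 weeks) and in aged mice (28 months, from the NIA per the labels), labelled as biological replicates. The 3 ages share strain and sex, and no allele or agent separates them. P21 and adult sections were mounted on Visium v1 slides, whereas aged sections were transferred with CytAssist onto v2 slides with a revised probe chemistry, so age and slide type cannot be told apart where aged sections are compared with adult ones. The labels name Jackson as the supplier of the adults and of the parents of the pups, so in that comparison supplier and age cannot be told apart either.

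Complement is a proteolytic cascade of innate immunity that also tags synapses and myelin debris for removal in the brain. In the classical pathway C1q, built from the products of C1qa, C1qb and C1qc, binds a surface and starts cleavage of C4 and then of C3, and the fragments C3a and C5a signal through the receptors C3ar1 and C5ar1. C1q and both receptors are made mainly by microglia in the brain, whereas C4b and C3 are known from reactive astrocytes and other glia, and Serping1 encodes the C1 inhibitor, which blocks the first proteases of the cascade.

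The C1q genes lie side by side on chromosome 4 of GRCm38 within 18675 bases, C1qb at 136880129 to 136886187, C1qc at 136889804 to 136893065 and C1qa at 136895917 to 136898803, all on the minus strand. C3 lies on chromosome 17 at 57203970 to 57228136, and C4b on the same chromosome at 34728380 to 34743882. C4a, a near-identical neighbour of C4b, was not analysed here, and whether its transcripts add to the C4b counts was not tested. Promoter sequence bears on genes that moved together, so 3 promoters are shown, each as the 250 bases before the transcription start in RefSeq (GRCm38.p6, minus strand, 5′ to 3′). C1qb (chr4:136886201-136886450) and C3ar1 (chr6:122856158-122856407) belong to genes of microglia, and C3 (chr17:57228137-57228386) is shown beside them. Capitals mark GAGGAA, the core bound by the myeloid factor PU.1, searched on both strands.
C1qb: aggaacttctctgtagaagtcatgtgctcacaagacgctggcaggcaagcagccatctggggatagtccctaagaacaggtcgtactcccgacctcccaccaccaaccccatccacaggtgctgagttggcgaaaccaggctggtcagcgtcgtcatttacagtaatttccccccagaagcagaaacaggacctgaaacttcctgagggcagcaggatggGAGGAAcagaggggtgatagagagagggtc
C3: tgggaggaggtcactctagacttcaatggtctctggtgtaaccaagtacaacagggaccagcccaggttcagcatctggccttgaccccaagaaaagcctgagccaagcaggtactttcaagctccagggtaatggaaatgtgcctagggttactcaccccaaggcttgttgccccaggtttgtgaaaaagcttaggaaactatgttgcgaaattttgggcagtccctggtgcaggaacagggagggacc
C3ar1: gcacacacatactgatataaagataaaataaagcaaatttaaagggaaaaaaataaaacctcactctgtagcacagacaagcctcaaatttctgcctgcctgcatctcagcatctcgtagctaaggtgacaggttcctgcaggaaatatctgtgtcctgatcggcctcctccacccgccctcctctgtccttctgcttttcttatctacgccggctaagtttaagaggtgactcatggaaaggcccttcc
GAGGAA was found once in the window of C1qb and once in that of C1qc, and not in those of C3, C3ar1 or C5ar1. The windows of C1qc (chr4:136892915-136893164) and C5ar1 (chr7:16259339-16259588) precede an inner start. Most of each lies within the annotated gene, which reaches 136893065 for C1qc and 16259540 for C5ar1. C1qa, C4b and Serping1 were not searched. These letters occur in 23.3% of 32851 RefSeq promoters of the same length. TTCNNNGAA, the form bound by STAT factors, was found in none of the 5 promoters and occurs in 7.02% of all. A match describes the letters of this window only.

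Between 42422997 and 106783660 UMIs per section were kept, in 2917 to 3679 spots, with median depths of 12074.5 to 25535 UMIs per spot. Spots were grouped by the expression of genes other than the members into zones named fiber tracts (FT), meninges (MEN), cortex (CTX), striatum (STR), hypothalamus (HY), hippocampus (HP), thalamus (TH), reticular thalamus (RT) and ventricular system (VS), and 10.1% of spots stayed unnamed. The VS group carried markers of choroid plexus and of medial habenula together. UMIs were summed per section, or per section and zone, and values are UMIs relative to the section or zone total (CPM) scaled with edgeR's TMM factors unless stated otherwise. A gene was called where edgeR's quasi-likelihood test gave a Benjamini-Hochberg adjusted p under 0.05 over all genes of that fit and the fold change passed 1.5. Spots hold several cells, so fewer cells of a type and less RNA per cell cannot be told apart in any of these sums. The aged files also held UMIs for 493 genes that were at 0 in all 4 P21 and adult sections, none of them a member.

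Over whole sections, C4b and C3 rose the most in aged brains and C4b was also lower at P21 than in adults, whereas C1qb and both receptors rose by smaller factors and C1qa, C1qc and Serping1 did not pass 1.5-fold. In aged vs adult 5 of the 8 members were called, all higher, where 28.4% of 18104 genes were called in either direction and 23.8% were called higher. The median log2 fold change of the members was 0.71 against 0.0411 over all genes. In P21 vs adult 1 member was called, C4b, where 8.06% of genes were called and 2.37% were called lower, and the members had a median of −0.19 against 0.0039.

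C1qa encodes the A chain of C1q. Its level was 99.1 and 96.3 CPM in the P21 sections, 114 and 111 CPM in adults and 147 and 131 CPM in aged mice. The ages did not overlap, yet the difference between aged and adult was a log2 fold change of 0.30 ± 0.07 (SE, n = 2 against 2 sections, edgeR adjusted p = 0.0035) and stayed under 1.5-fold. P21 lay below adult by a log2 change of −0.21 ± 0.07 (adjusted p = 0.055). C1qb, the B chain, was counted at 53.3 and 57.3 CPM at P21, 60.1 and 59.7 CPM in adults and 107 and 90.7 CPM in aged mice. Both aged sections stood above the other 4, and the log2 fold change of 0.72 ± 0.08 (adjusted p = 6.8e-05) was called. C1qc, the C chain, had 71.7 and 75.8 CPM at P21, 85.0 and 81.7 CPM in adults and 113 and 105 CPM in aged mice, a log2 fold change of 0.39 ± 0.07 in aged vs adult (adjusted p = 0.00079) that did not reach 1.5-fold. All 3 chains thus had the order P21, adult, aged without overlap, and the P21 to adult step of C1qb and C1qc was not past the test (adjusted p = 0.37 and 0.091). How many of all genes had such an order was not counted.

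C4b encodes the complement component that C1 cleaves first. It was counted at 15.0 and 13.8 CPM at P21, 31.8 and 31.1 CPM in adults and 247 and 203 CPM in aged mice. Each age was separate from the next by more than the spread of its sections. The log2 fold change was −1.12 ± 0.10 in P21 vs adult (adjusted p = 1.4e-05) and 2.84 ± 0.10 in aged vs adult (adjusted p = 1.8e-08). Among the 2963 genes within 1.5 times the adult level of C4b, 3.21% were called higher in aged mice. C3, the component on which the pathways converge, had 0.421 and 0.602 CPM at P21, 0.816 and 0.504 CPM in adults and 6.08 and 6.91 CPM in aged mice, which rested on 37, 25, 42, 25, 515 and 787 UMIs. Its aged sections lay far above the others, whereas P21 and adult overlapped. The log2 fold change was 3.29 ± 0.23 in aged vs adult (adjusted p = 3.2e-06) and −0.44 ± 0.29 in P21 vs adult (adjusted p = 0.32). Of the 744 genes near the adult level of C3, 29.3% were called higher in aged mice, so calls at this low level were more frequent in these libraries than at the level of C4b.

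C3ar1, the receptor of C3a, was counted at 5.24 and 5.71 CPM at P21, 5.01 and 5.04 CPM in adults and 8.0 and 8.33 CPM in aged mice. Aged sections were the highest and the other 4 lay close together, with a log2 fold change of 0.70 ± 0.12 in aged vs adult (adjusted p = 0.00054) and 0.12 ± 0.12 in P21 vs adult (adjusted p = 0.53). C5ar1, the receptor of C5a, had 0.693 and 0.795 CPM at P21, 0.836 and 0.947 CPM in adults and 2.63 and 2.47 CPM in aged mice. Its aged sections were again separate, with a log2 fold change of 1.51 ± 0.20 (adjusted p = 0.00012). Near the adult levels of C3ar1 and C5ar1, 9.11% and 24.8% of genes were called higher in aged mice. Serping1 ran the other way, with 6.40 and 6.36 CPM at P21, 6.92 and 5.68 CPM in adults and 4.21 and 4.67 CPM in aged mice. Both aged sections were below the other 4, and the log2 change of −0.50 ± 0.14 (adjusted p = 0.0076) did not reach 1.5-fold. Without adult replicate 2 it did, with a log2 change of −0.66, and the number of members called in aged vs adult was then 6. Of 9 genes of meninges and vessel wall, 7 were called lower in aged whole sections (median log2 change −1.02), where 4.68% of genes were. Within MEN 3 of the 9 were called lower (median −0.36), where 5.04% of genes were. MEN, where Serping1 was highest, held 188 and 188 spots in adults and 119 and 149 in aged mice. The part of the meninges in the Serping1 value was not tested.

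**Figure D1:**
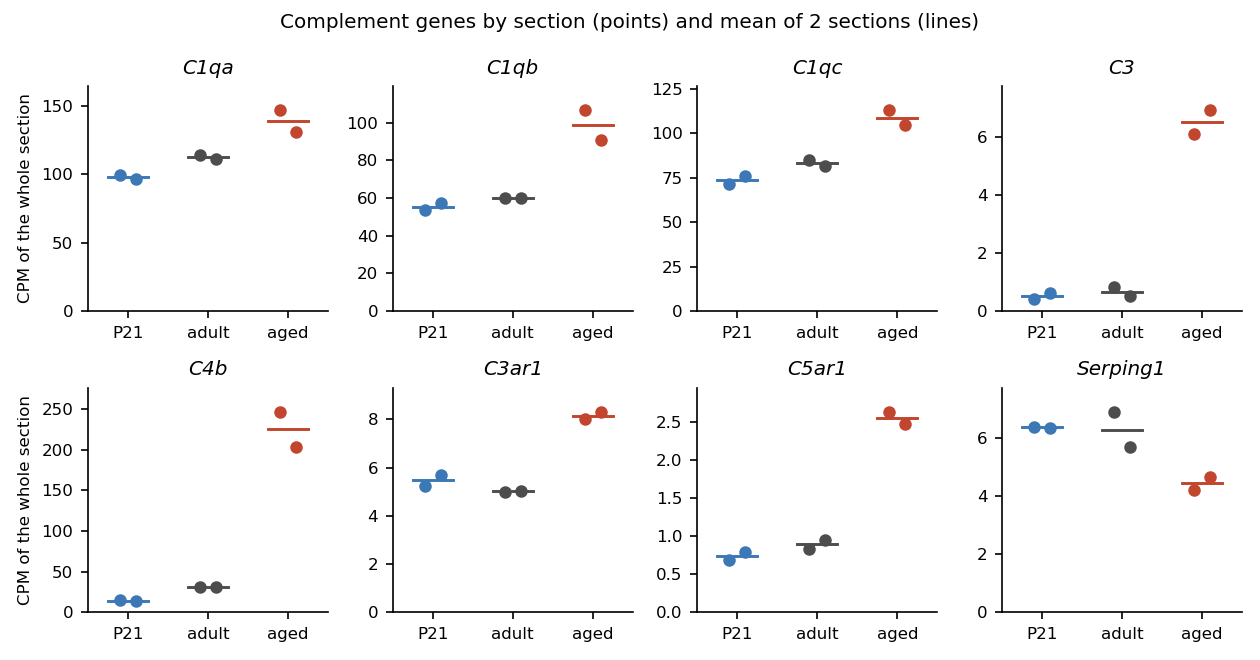
CPM of each of the 8 complement genes over whole sections (linear axis from 0, TMM scaled), with 1 point per section for P21, adult and aged. The 2 aged sections lie above the other 4 sections for 7 genes and below them for Serping1. The share of all genes whose aged sections stand apart in this way was not counted.

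The members were not spread evenly over the brain. Averaged over the 3 ages, all 8 were called higher in FT than in the mean of CTX, HP, TH, HY and STR, where 26.1% of 15067 genes were called in either direction and 17.7% were called higher. The log2 differences were 1.33 for C1qa, 1.28 for C1qb, 1.29 for C1qc, 2.48 for C4b, 3.11 for C3, 1.56 for C3ar1, 1.45 for C5ar1 and 1.32 for Serping1. Without P21 replicate 1 the C3 difference was 1.35 and was no longer called. An average over ages does not mean an excess in every section. C3 rested on 4 and 0 FT UMIs in the 2 P21 sections. For Serping1 the ratio of FT to the other zones, from raw CPM, was 1.31 and 1.02 in the P21 pair. Its adult pair had ratios of 2.12 and 1.69, and its aged pair 4.67 and 4.80. C5ar1 ratios were 1.17 and 2.11 (P21 pair), 2.22 and 5.83 (adult pair), and 3.33 and 3.66 (aged pair). The FT excess differed by age: for C4b it was 1.13 ± 0.16 in P21, 2.14 ± 0.11 in adult and 4.16 ± 0.07 in aged sections, and for C1qa it was 0.59 ± 0.06, 0.86 ± 0.06 and 2.53 ± 0.05 (log2 ± SE). CTX had the reverse order, with log2 differences of −0.59 for C1qa, −0.59 for C1qb, −0.60 for C1qc, −1.89 for C4b and −1.40 for Serping1 against the other zones, all called lower, where 11.9% of genes were.

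In FT every member was called higher in aged than in adult sections, where 30.5% of 13722 genes were called and 18.2% were called higher. C3 and C5ar1 passed the filter on low counts in FT through their aged sections, which favoured a call of higher. Calls were more frequent at low levels here too. Among genes within 1.5 times the adult FT level of C3, C5ar1, C3ar1 and Serping1, 38.8%, 31.5%, 28.5% and 28.8% were called higher. Near C1qa, C1qb, C1qc and C4b these shares were 6.45%, 7.08%, 6.86% and 7.45%. C4b had the smallest adjusted p, with 26.3 and 21.0 CPM at P21, 80.1 and 88.0 CPM in adults and 2229 and 2121 CPM in aged mice, and no section of one age came near those of another. The log2 fold change was 4.69 ± 0.10 in aged vs adult (adjusted p = 1.7e-17) and −1.79 ± 0.12 in P21 vs adult (adjusted p = 1.2e-09), where 9.60% of genes were called. C3 was counted in FT with 4 and 0 UMIs at P21, 12 and 6 UMIs in adults and 266 and 437 UMIs in aged mice, or 51.5 and 79.7 CPM in the latter, a log2 fold change of 5.48 ± 0.29 (adjusted p = 1.2e-11). Its adult levels were 1.95 and 0.960 CPM, and the section at 0 allows up to 0.804 CPM.

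C1qa in FT had 135 and 134 CPM at P21, 171 and 184 CPM in adults and 695 and 731 CPM in aged mice. C1qb had 74.2 and 84.1, 88.2 and 103, and 455 and 449 CPM in the same order. C1qc had 98.8 and 103, 136 and 136, and 487 and 538 CPM. For each chain the aged sections were separate from all others, with log2 fold changes of 2.0 ± 0.08, 2.24 ± 0.09 and 1.91 ± 0.09 in aged vs adult (adjusted p = 4.2e-13, 4.2e-13 and 1.1e-12). In P21 vs adult the chains were lower by log2 changes of −0.40, −0.29 and −0.44 (adjusted p = 0.0019, 0.044 and 0.0013), all under 1.5-fold.

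C3ar1 in FT had 6.76 and 10.3 CPM at P21, 6.51 and 9.28 CPM in adults and 43.2 and 52.7 CPM in aged mice, a log2 fold change of 2.60 ± 0.19 (adjusted p = 9.2e-10). C5ar1 had 0.860 and 1.4, 1.30 and 2.72, and 8.13 and 8.76 CPM, a log2 fold change of 2.06 ± 0.34 (adjusted p = 3.7e-05). P21 and adult sections overlapped for both receptors and the aged sections did not overlap with them. Serping1, which was lowest in the aged whole sections, was highest in aged FT, with 6.39 and 5.03 CPM at P21, 8.14 and 6.56 CPM in adults and 13.2 and 16.1 CPM in aged mice, and a log2 fold change of 0.99 ± 0.22 (adjusted p = 0.00074), a call that was lost with zones from a higher clustering resolution (0.56).

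FT held 6.28% and 5.05% of all UMIs in the aged sections but 11.5% and 12.0% in the adult sections, on 11.9% and 10.6% against 11.5% and 12.2% of the spots. Scaling FT per spot to its section, an alternative chosen after seeing the data, moved the median log2 change of all FT genes in aged vs adult from 0.0334 to −1.07 and the share of called FT genes that were higher from 59.6% to 4.44%. The members then had log2 fold changes of 0.90 for C1qa, 1.14 for C1qb, 0.81 for C1qc, 3.6 for C4b, 4.37 for C3, 1.49 for C3ar1 and 0.96 for C5ar1, all 7 still called, whereas Serping1 turned to −0.11. This scaling moves all FT genes of a section alike, so where the members stand relative to the median of all genes is set by construction and is no second measurement.

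**Figure D2:**
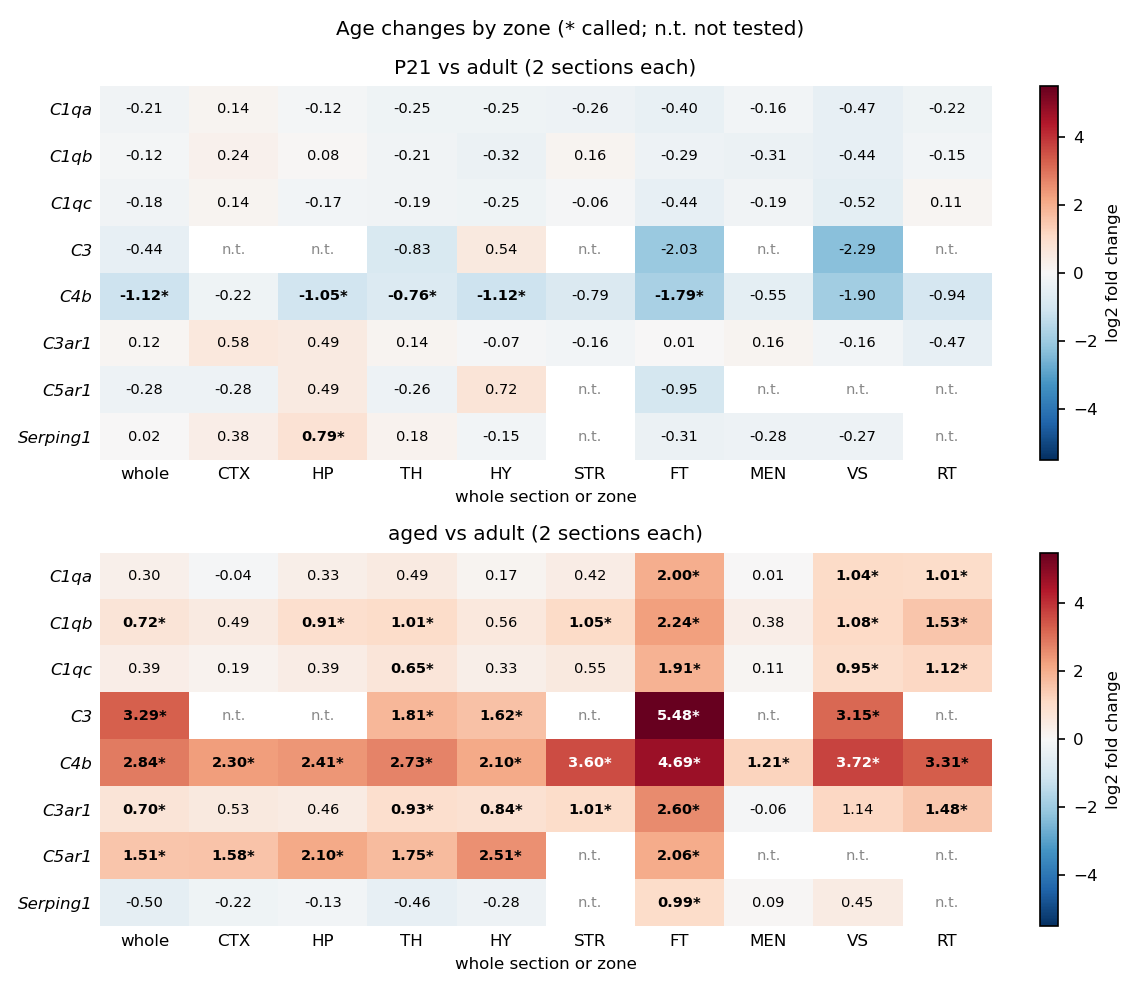
Log2 fold change of each complement gene in each zone, for P21 vs adult and aged vs adult, as colour and number, with called values starred and in bold and untested values shown as n.t. C4b reached 4.69 and C3 5.48 in aged FT, and C1qa in CTX was −0.04.

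Over the 9 zones, 61 of 72 values of a member in a zone passed the filter on low counts in each comparison, and those that did not were of C3, C5ar1 and Serping1. The values of C3 and C5ar1 that passed did so mostly through their aged sections, as did C3ar1 in RT. This favoured calls of higher in aged vs adult. In aged vs adult 37 of the 61 were called, all higher, where 14.5% of the values of all genes were called and 7.90% were called higher. In P21 vs adult 5 of the 61 were called, 4 lower and 1 higher, where 5.39% were called, 1.91% lower and 3.48% higher.

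C4b was called higher in aged mice in all 9 zones, and each of these calls held when any 1 section was left out. In CTX it was counted at 7.22 and 5.83 CPM at P21, 8.67 and 7.02 CPM in adults and 43.5 and 34.7 CPM in aged mice, a log2 fold change of 2.30 ± 0.15. In STR the values were 14.8 and 9.26, 26.4 and 18.6, and 258 and 294 CPM (log2 fold change 3.6 ± 0.15), and in VS they were 13.3 and 18.5, 66.3 and 48.9, and 968 and 556 CPM (3.72 ± 0.32). The change was smallest in MEN, with 86.7 and 74.6, 135 and 101, and 224 and 324 CPM (1.21 ± 0.16), the zone where P21 and adult sections had their highest C4b. Per-spot scaling lowered the MEN value to 0.68 and ended its call.

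At P21, C4b was called lower than in adults in HP, TH, HY and FT. HP sections had 14.7 and 15.3 CPM at P21 and 26.9 and 34.7 CPM in adults (log2 change −1.05 ± 0.15), TH sections 7.88 and 8.15 against 14.8 and 12.3 CPM (−0.76 ± 0.13), and HY sections 18.2 and 14.6 against 33.3 and 38.7 CPM (−1.12 ± 0.21), none of them overlapping. The FT call held whichever section was left out. The HP call was lost without P21 replicate 1 (−1.01), the TH call without P21 replicate 1 (−0.73) or adult replicate 1 (−0.62), and the HY call without P21 replicate 1 (−1.30), P21 replicate 2 (−0.99), adult replicate 1 (−1.23) or adult replicate 2 (−1.01). Serping1 was called higher at P21 in HP, with 8.38 and 10.0 CPM against 5.06 and 5.32 CPM in adults (0.79 ± 0.23), and this was lost without P21 replicate 1 (0.95), P21 replicate 2 (0.69), adult replicate 1 (0.75) or adult replicate 2 (0.83).

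The C1q chains were not called in aged CTX, where C1qa had 83.7 and 77.4 CPM in adults and 83.9 and 72.7 CPM in aged mice (log2 change −0.04 ± 0.10). C1qb there had 43.5 and 39.95 CPM in adults and 65.1 and 52.3 CPM in aged mice, without overlap, and its log2 change of 0.49 ± 0.11 passed the test (adjusted p = 0.0029) but not 1.5-fold. C1qb was the chain called in most zones, HP, TH, STR, FT, VS and RT, with TH values of 51.0 and 54.7 CPM in adults and 116 and 96.4 CPM in aged mice (1.01 ± 0.11) and RT values of 41.8 and 57.1 against 133 and 156 CPM (1.53 ± 0.18). C1qc was called in TH, FT, VS and RT, and C1qa in FT, VS and RT. The VS calls of the 3 chains were lost without P21 replicate 1 (1.03, 1.08 and 0.95 for C1qa, C1qb and C1qc), P21 replicate 2 (1.02, 1.06 and 0.93) or adult replicate 1 (1.01, 1.08 and 1.01), and that of C1qc also without adult replicate 2 (0.86). The other C1q calls held in every such fit. Under per-spot scaling the VS, RT and TH calls of the chains were lost, with log2 changes of 0.12 to 0.67, whereas those of C1qb in HP and STR and of all 3 in FT were kept.

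C3 passed the filter on low counts in TH, HY, FT and VS and was called in each. In TH, HY and FT it passed through its aged sections, so being tested there already favoured a call of higher. In VS it had 7.96 and 7.38 CPM in adults and 93.8 and 46.2 CPM in aged mice (log2 fold change 3.15 ± 0.45). In TH the values rested on 2 and 4 UMIs in adults and 12 and 17 in aged mice, and in HY on 3 and 4 against 16 and 33. The HY call was lost without any 1 of the 6 sections (1.4 to 1.86), the TH call without either P21 or either adult section (1.51 to 2.26) and the VS call without adult replicate 1 (3.19). Per-spot scaling ended the TH (1.39) and HY (1.11) calls and kept those in FT and VS. The FT call held without any 1 section.

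C3ar1 was called higher in aged TH, HY, STR, FT and RT, and C5ar1 in all 5 zones where it was tested, CTX, HP, TH, HY and FT. C5ar1 passed the filter on low counts through its aged sections, which favoured a call of higher in these zones. The same holds for C3ar1 in RT, with 6 UMIs at P21 and 12 in adults against 38 in aged mice. C5ar1 in CTX had 0.639 and 0.513 CPM in adults and 1.72 and 1.77 CPM in aged mice (log2 fold change 1.58 ± 0.36), a call that held without any 1 section. With DESeq2 the C5ar1 calls in CTX, HP, TH and HY, the C3ar1 calls in HY, STR and RT and the C3 calls in TH and HY were lost, without a change of direction. Beyond FT, calls of C3ar1 were lost in TH without adult replicate 2 (0.71), in HY without P21 replicate 1 (0.83), P21 replicate 2 (0.83), adult replicate 1 (0.93), adult replicate 2 (0.75) or aged replicate 2 (0.68), in STR without adult replicate 1 (0.74), adult replicate 2 (1.30) or aged replicate 2 (0.84), and in RT without adult replicate 1 (1.37), adult replicate 2 (1.63) or aged replicate 2 (1.05). Those of C5ar1 were lost in HP without adult replicate 1 (2.71) or adult replicate 2 (1.63), in TH without adult replicate 1 (1.35) or aged replicate 1 (1.34), and in HY without adult replicate 2 (1.81). Per-spot scaling ended every C3ar1 call beyond FT, in TH (0.51), HY (0.32), STR (0.83) and RT (0.62), and kept those of C5ar1.

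MEN and VS had patterns of their own. Averaged over all ages, all 8 members were called higher in MEN than in the mean of the other 7 zones. Over 15063 genes 16.9% were called and 14.4% were called higher. C3 rested there on 11, 13 and 32 UMIs in the P21, adult and aged pairs, and C5ar1 on 11, 9 and 26. Neither passed the filter on low counts in MEN alone. C3 in MEN had a mean of 3.11 CPM (SD 3.45) in adults and 9.93 CPM (SD 12.0) in aged mice. Serping1 was in front at a log2 difference of 3.40 ± 0.12. Serping1 in MEN was counted at 53.3 and 37.0 CPM at P21, 58.3 and 55.3 CPM in adults and 54.0 and 66.3 CPM in aged mice, so the ages overlapped there. The C4b excess of MEN over the other zones was 2.56 ± 0.20 in P21, 2.01 ± 0.18 in adult and 0.14 ± 0.14 in aged sections. In aged sections alone only C5ar1 (1.49) and Serping1 (3.61) passed the rule of a call. The C1q chains were at 0.27, 0.36 and 0.30 for C1qa, C1qb and C1qc, under 1.5-fold. C3 and C3ar1 there had edgeR adjusted p = 0.12 and 0.099. In VS, over all ages, C3 stood above the other zones by 3.59 ± 0.62 and Serping1 by 1.17 on the log2 scale, where 22.6% of genes were called. The C4b difference in VS was −0.21 in P21 (adjusted p = 0.67), 0.85 in adult and 1.77 in aged sections. Averaged over all ages, the C1q chains lay slightly below the other zones there, with log2 differences of −0.22 for C1qa, −0.18 for C1qb and −0.11 for C1qc (edgeR adjusted p = 0.00046, 0.0098 and 0.042), none past 1.5-fold. The differences depended on age. For C1qa, C1qb and C1qc they were −0.59, −0.44 and −0.46 in P21 sections and −0.29, −0.09 and −0.09 in adult ones. In aged sections they were 0.22, −0.02 and 0.21. Of these only the P21 value of C1qa passed 1.5-fold.

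Within the hippocampus, spots were divided into CA1-2, the dentate gyrus (DG) and the surrounding matrix. C4b in CA1-2 had 5.17 and 0 CPM at P21, 15.9 and 20.7 CPM in adults and 88.9 and 117 CPM in aged mice, on 6 and 0 UMIs at P21. In DG it had 7.14 and 6.33, 12.6 and 15.5, and 90.1 and 68.7 CPM, and in the matrix 21.8 and 24.9, 46.9 and 64.3, and 416 and 434 CPM. The ages did not overlap in any of the 3, and the log2 fold changes in aged vs adult were 2.5 ± 0.25, 2.45 ± 0.23 and 2.93 ± 0.13. C1qa was called higher in aged mice in each of them, with 1.07 ± 0.19 in CA1-2, 0.93 ± 0.20 in DG and 0.76 ± 0.11 in the matrix, although it was 0.33 ± 0.10 over HP as a whole. The matrix, where C1qa was highest, supplied 254 and 303 HP spots in adults and 160 and 127 in aged mice. Called higher were 4 of 4 tested members in CA1-2 and DG and 6 of 7 in the matrix, where 4.16%, 4.02% and 8.32% of genes were. C5ar1 passed the filter on low counts in the matrix through its aged sections.

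**Figure D3:**
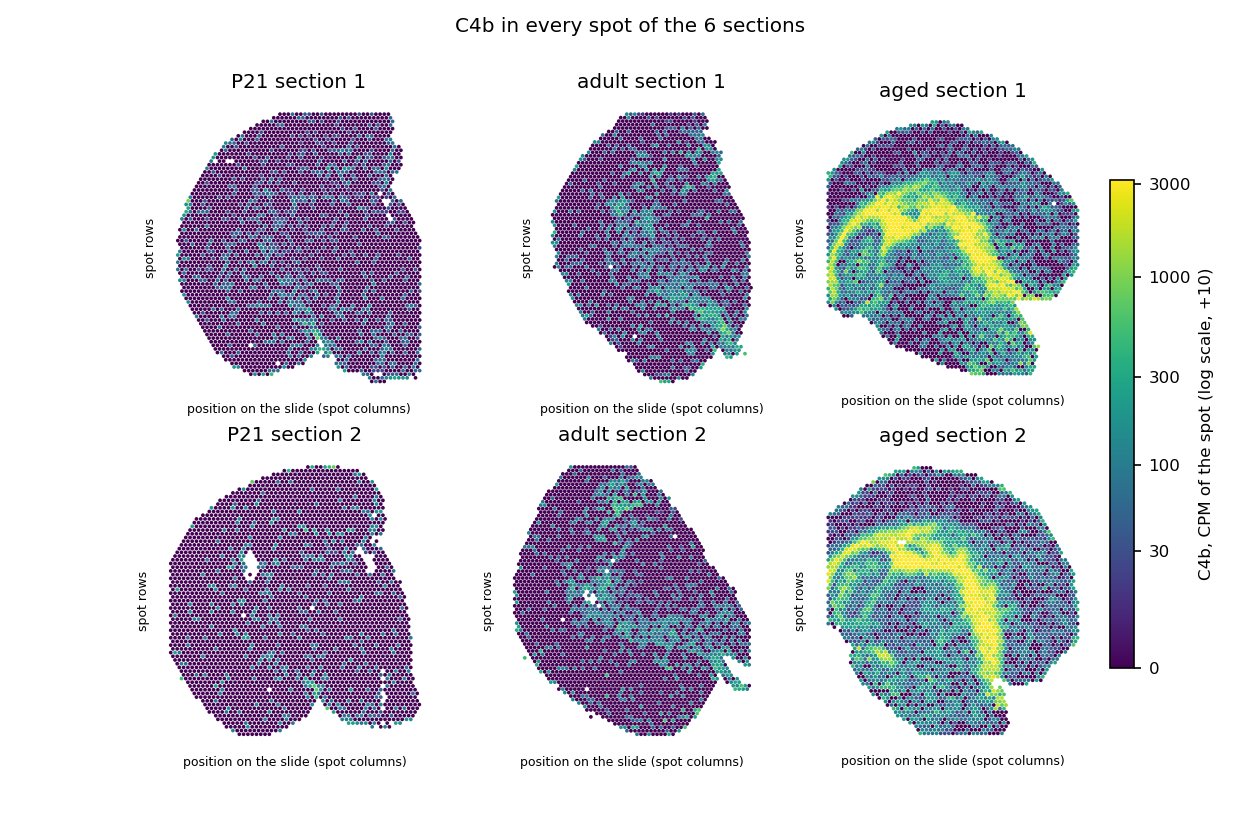
C4b CPM per spot (colour, log scale with 10 CPM added) at the spot positions of the 6 sections, with spots above the top of the scale drawn in its brightest colour. Aged sections carry high values along FT, where the summed levels were 2229 and 2121 CPM, and CTX stays at 43.5 and 34.7 CPM.

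Whether an age change differed between zones was tested in 1 model of 36 sums from the 6 large zones, with section as a block that takes up any factor acting alike on a whole section. In aged vs adult 7 of 8 members had a zone-by-age difference, where 38.6% of genes did. The edgeR F-test gave adjusted p = 1.1e-12 for C1qa, 6.1e-10 for C1qb, 2.8e-12 for C1qc, 1.9e-10 for C4b, 0.012 for C3, 4.0e-06 for C3ar1 and 0.019 for Serping1, and 0.84 for C5ar1. Leaving out either adult section brought the count to 5, and C3 and Serping1 reached adjusted p of up to 0.31 and 0.26 over the alternatives. The aged change in FT exceeded the mean change of the other 5 zones by a log2 difference of 1.67 ± 0.08 for C1qa, 1.38 ± 0.10 for C1qb, 1.44 ± 0.07 for C1qc, 2.01 ± 0.14 for C4b, 2.57 ± 0.98 for C3, 1.79 ± 0.21 for C3ar1 and 1.30 ± 0.29 for Serping1, all with adjusted p under 0.05, where 33.0% of genes passed. For C5ar1 the difference was −0.14 ± 0.44. C4b also rose more in STR (0.78 ± 0.21, where 5.31% of genes passed) and less in HY (−1.07 ± 0.17, 6.04%), CTX (−0.78 ± 0.19, 8.13%) and HP (−0.66 ± 0.16, 15.2%) than in the other zones.

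In P21 vs adult 4 of 8 members had a zone-by-age difference, where 9.85% of genes did, with adjusted p = 0.013 for C1qa, 0.015 for C1qb, 0.0038 for C1qc and 0.0053 for C4b. The C4b deficit at P21 was larger in FT than in the other zones by −1.01 (adjusted p = 0.0016, where 3.84% of genes passed), and C1qa in CTX was higher relative to the other zones by 0.41 ± 0.08 (adjusted p = 0.0098, where 1.53% of genes passed). The count was 0 without P21 replicate 1, 1 without P21 replicate 2, 1 without adult replicate 1, 0 without adult replicate 2 and 0 with zones assigned by marker score.

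The sharpness of zones differed between sections for other genes too. FT over the other zones, from raw CPM, was 3.81, 4.73, 4.44, 4.73, 7.69 and 6.89 for a list of 8 oligodendrocyte genes in P21, adult and aged sections 1 and 2, and striatal markers in STR over other zones ran 10.7, 9.85, 10.6, 10.5, 20.4 and 21.6. The same ratio for C4b was 2.06, 1.89, 3.69, 4.06, 15.1 and 15.3, and for C1qa 1.45, 1.45, 1.68, 1.93, 5.49 and 6.18. Aged sections were the highest of the 6 on both of these ratios. The oligodendrocyte and striatal genes were markers used to name FT and STR, so their ratios are not independent of how the zones were drawn. The members were kept out of the clustering, but genes of a like pattern outside the excluded lists, such as Ctss and Cst3, were not. Pmch, a neuropeptide of the hypothalamus and also a marker used to name HY, had HY over other zones at 11.2, 12.8, 19.4, 25.3, 222.8 and 11.55. Its own level in HY was 3163, 1969, 186, 2780, 4922 and 22.3 CPM, so the last ratio rests on little signal. With each spot thinned to 5000 UMIs, Pmch had a UMI in 46.1%, 40.3%, 1.76%, 15.9%, 0.379% and 0.256% of CTX spots. This share was lowest in both aged sections, and it also depends on the level in HY. The part of zone sharpness in the zone differences of the members was not tested.

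FT held a larger share of the C4b UMIs in adult than in P21 sections, and the largest share in the aged sections. FT held 16.2% (95% Wilson interval 14.3% to 18.3%) and 13.1% (10.6% to 16.1%) of the C4b UMIs of the P21 sections, 30.1% (27.9% to 32.3%) and 35.6% (33.3% to 38.0%) in adults and 55.1% (54.4% to 55.8%) and 50.3% (49.7% to 51.0%) in aged mice. For C3 the shares were 28.6% (17.2% to 43.6%) and 24.0% (11.5% to 43.4%) in adults and 51.7% (47.3% to 55.9%) and 55.5% (52.0% to 59.0%) in aged mice. C1qa had 12.6%, 12.0%, 17.9%, 20.8%, 28.8% and 26.8%, and Serping1 9.24%, 6.82%, 14.0%, 14.5%, 19.0% and 16.5%, in the order of P21, adult and aged sections. Both aged shares lay above both P21 shares for C4b, C1qa and Serping1, and the intervals cover counting error only. How many of all genes had FT shares in that order was not counted. Aged sections were also the only ones on v2 slides, and the part of slide type and zone sharpness in these shares was not tested.

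The level of C4b fell with distance from FT in every section, and most steeply in the aged sections. The part of slide type and zone sharpness in this steepness was not tested. In the aged sections raw C4b CPM went from 2236 and 2155 in FT spots to 755 and 676 in spots 1 step away, 258 and 196 at 2 steps, 121 and 101 at 3 to 4 steps, 86.8 and 66.9 at 5 to 8 steps and 53.3 and 49.7 farther out. In adults it went from 81.8 and 89.8 in FT to 45.7 and 42.9 at 1 step and 19.5 and 17.7 in the farthest spots, and at P21 from 25.8 and 20.1 to 20.8 and 19.3 and then 13.2 and 12.0. C3 in aged mice went from 51.7 and 81.0 CPM in FT to 32.0 and 26.1 at 1 step and 0.495 and 0.925 in the farthest spots, and C1qa from 697 and 743 to 255 and 273 and then 97.1 and 89.3. The farthest aged spots still had more C4b than the farthest adult spots, whereas the 97.1 and 89.3 CPM of C1qa there overlapped with 101 and 92.4 CPM in adults.

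**Figure D4:**
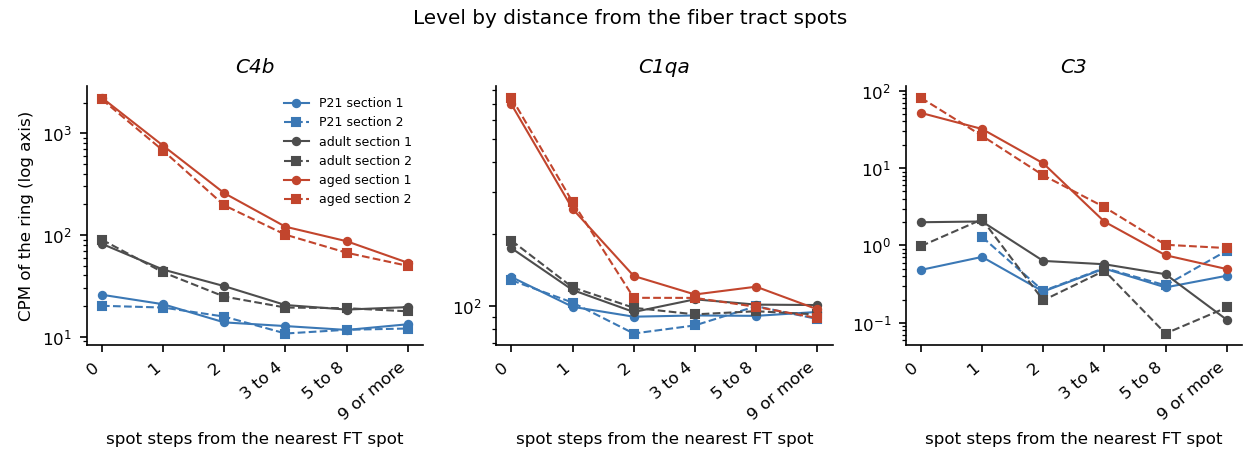
CPM of C4b, C1qa and C3 (log axis, unscaled) against the number of spot steps from the nearest FT spot, 1 line per section, with values of 0 not drawn. C4b in aged sections falls from 2236 and 2155 CPM in FT to 53.3 and 49.7 CPM at 9 or more steps.

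Counted per spot, the members spread differently. With every spot thinned to 5000 UMIs, so that depth did not differ, C4b had a UMI in 7.08% (95% exact interval 6.26% to 7.97%) and 5.75% (4.97% to 6.61%) of P21 spots, 13.0% (11.8% to 14.3%) and 13.2% (12.0% to 14.4%) of adult spots and 42.8% (41.2% to 44.5%) and 43.3% (41.7% to 45.0%) of aged spots. Unthinned shares were 25.2%, 13.5%, 32.2%, 29.2%, 71.9% and 79.0%. In FT the thinned shares of C4b were 11.9%, 7.03%, 30.7%, 34.3%, 99.5% and 99.5%, so almost every aged FT spot held it, and in CTX they were 3.73%, 2.70%, 4.26%, 3.37%, 18.1% and 13.2%. C1qa in CTX lay between 31.4% and 33.5% in all 6 sections, while in FT it was 50.6%, 49.2%, 52.5% and 52.9% at P21 and in adults against 91.8% and 93.7% in aged mice. C3 had a UMI in 84 of 425 and 115 of 378 aged FT spots, and in 3 FT spots of the other 4 sections together.

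The deposited Moran's I scores, a measure of how far neighbouring spots resemble each other, ordered the sections in the same way for C4b, with 0.127 and 0.0742 in P21, 0.256 and 0.229 in adult and 0.749 and 0.740 in aged sections. Its rank among all genes was 1949 and 2224, 520 and 609, and 32 and 41. C1qa had 0.0603 and 0.0370, 0.0724 and 0.0858, and 0.436 and 0.489, and C3 0.00537 and 0.000769, 0.0967 and 0.0220, and 0.449 and 0.438. C5ar1 stayed at 0.0180 and 0.0172 in aged mice and Serping1 at 0.0923 and 0.121, so the scores were high in aged sections for some members and not for others. The score depends on depth and on the slide, which differ between sections.

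The C1q chains moved together but not in equal parts. C1qb made up 23.8%, 25.0%, 23.2% and 23.6% of all C1q UMIs in the P21 and adult sections and 29.1% (95% interval 28.6% to 29.6%) and 27.8% (27.3% to 28.2%) in the aged sections. C1qa went from 44.2%, 42.0%, 44.1% and 44.1% to 40.1% and 40.2%, and C1qc stayed within 30.9% to 33.0% in all 6. These shares depend on the probes of each gene, which may differ between the slide types. Relative to 12 other microglial genes, C1q UMIs per microglial UMI were 0.515, 0.493, 0.554, 0.515, 0.653 and 0.637 over whole sections and 0.535, 0.520, 0.589, 0.552, 0.869 and 0.903 in FT, while in CTX they were 0.503, 0.474, 0.518, 0.468, 0.537 and 0.504.

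Markers of glial cells moved with the members in aged FT. The 12 microglial genes summed to 565, 591, 685, 784, 1888 and 1933 CPM there, with 10 of 12 called higher in aged vs adult and a median log2 fold change of 1.27, while over whole sections 1 was higher, 2 were lower and the median was near 0 (P2ry12, a homeostatic microglial receptor, at −0.71 ± 0.08). All 9 genes of activated microglia tested were called higher in aged FT (median 2.75), as were 7 of 7 reactive astrocyte genes (median 2.98). Their sums ran 122, 110, 155, 159, 778 and 843 CPM and 504, 587, 749, 823, 3663 and 4065 CPM. Over all genes tested in FT 18.2% were called higher in aged vs adult. Over whole sections Serpina3n, a protease inhibitor of reactive astrocytes, rose by 2.48 ± 0.09, Gfap, their intermediate filament, by 0.80 ± 0.08 and Cst7, a cystatin of activated microglia, by 2.81 ± 0.30 on the log2 scale. Of these lists, 5 of 9 activated microglia genes (median 0.96) and 6 of 8 reactive astrocyte genes (median 0.92) were called higher there. None was called lower, although some activated microglia genes had a negative change. Over all genes of whole sections 23.8% were called higher. Oligodendrocyte genes, which were also markers used to name FT, had 0 of 8 higher there and 1 lower in aged vs adult. In P21 vs adult they had 7 of 8 higher. Peripheral myeloid and lymphoid genes summed to 7.65 to 17.6 CPM in P21 and adult FT, with 2 to 5 of 10 genes at 0, and to 23.5 and 28.9 CPM in aged FT. The complement members had 8 of 8 higher in aged FT, where 18.2% of genes were, with a median of 2.15 against 0.0334 over all genes. C3 and C5ar1 were tested there through their aged sections, which favoured a call of higher. The part of cell composition in these FT values was not tested.

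Other genes of the cascade, 45 of 47 listed being in the files, had calls in both directions over whole sections. Of the classical and lectin list 4 of 11 tested were called higher in aged mice and none lower (median log2 change 0.26). Of the alternative and terminal list 6 of 9 were higher and none lower (1.83). Of the regulators 1 of 16 was higher and 2 lower (−0.04), and of the other receptors 3 of 7 and 1 (0.31). Over all genes 28.4% were called and 23.8% were called higher. Cfb, Cfd, Hc, C6 and C8a of the alternative and terminal list passed the filter on low counts through their aged sections. So did C1rb, Mbl1, Mbl2 and Vsig4 of the other lists. Being tested thus favoured a call of higher for these genes. C1ra, a protease of the C1 complex, had 0.784 and 0.578 CPM at P21, 1.30 and 1.13 CPM in adults and 2.01 and 2.71 CPM in aged mice, called in both comparisons (−0.79 ± 0.26 and 0.96 ± 0.22). Itgb2, the beta chain of complement receptor 3, had 3.64 and 4.0, 5.58 and 5.84, and 8.80 and 8.82 CPM, also called in both (−0.59 ± 0.13 and 0.63 ± 0.12). Both thus had the order P21, adult, aged that C4b had, which follows from being called in both comparisons. How many of all genes had that order was not counted.

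Cd93, a receptor of endothelial and myeloid cells once described as binding C1q, had the opposite order, with 17.9 and 22.3 CPM at P21, 11.7 and 9.55 CPM in adults and 4.46 and 4.04 CPM in aged mice (0.91 ± 0.13 and −1.33 ± 0.14). Vtn, whose product vitronectin blocks the terminal complex, had 35.2 and 29.6 CPM in adults and 16.7 and 17.8 CPM in aged mice (−0.91 ± 0.09), and Cd46, a regulator of C3b, 13.6 and 12.9 against 7.55 and 9.53 CPM (−0.63 ± 0.12). Itgax, a complement receptor chain, rose from 0.0972 and 0.343 to 1.4 and 0.993 CPM (2.44 ± 0.43), and Cr2, the receptor of C3d, from 0.602 and 0.403 to 0.885 and 1.07 CPM (0.96 ± 0.27). At P21 the calls were also C8b, with 0.966 and 0.626 against 0.214 and 0.161 CPM in adults, C8g, with 3.03 and 2.65 against 1.89 and 1.77 CPM, and Colec11, a collectin of the lectin pathway, with 1.83 and 2.10 against 1.01 and 1.21 CPM.

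The other calls in aged vs adult were of genes with little signal. All but C8b passed the filter on low counts through their aged sections. Mbl2, Cfb, Hc, C8a and C8b stayed at or under 0.566 CPM in every aged section. C1rb rested on 80 aged UMIs against 1 in adults, C6 on 53 against 1, Cfd on 58 against 2 and Vsig4 on 38 against 1, giving ratios of 44.0 (95% exact interval 7.67 to 1758), 29.1 (5.01 to 1172), 15.9 (4.22 to 134.7) and 20.9 (3.53 to 846). Mbl1 had 72 aged UMIs and none in P21 or adult sections, which makes it at least 6.71-fold higher in aged mice against a floor of 3 UMIs per adult library. These calls sit in libraries where 493 genes had UMIs on the aged slides only, and the part of the probe panel in them was not tested.

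**Figure D5:**
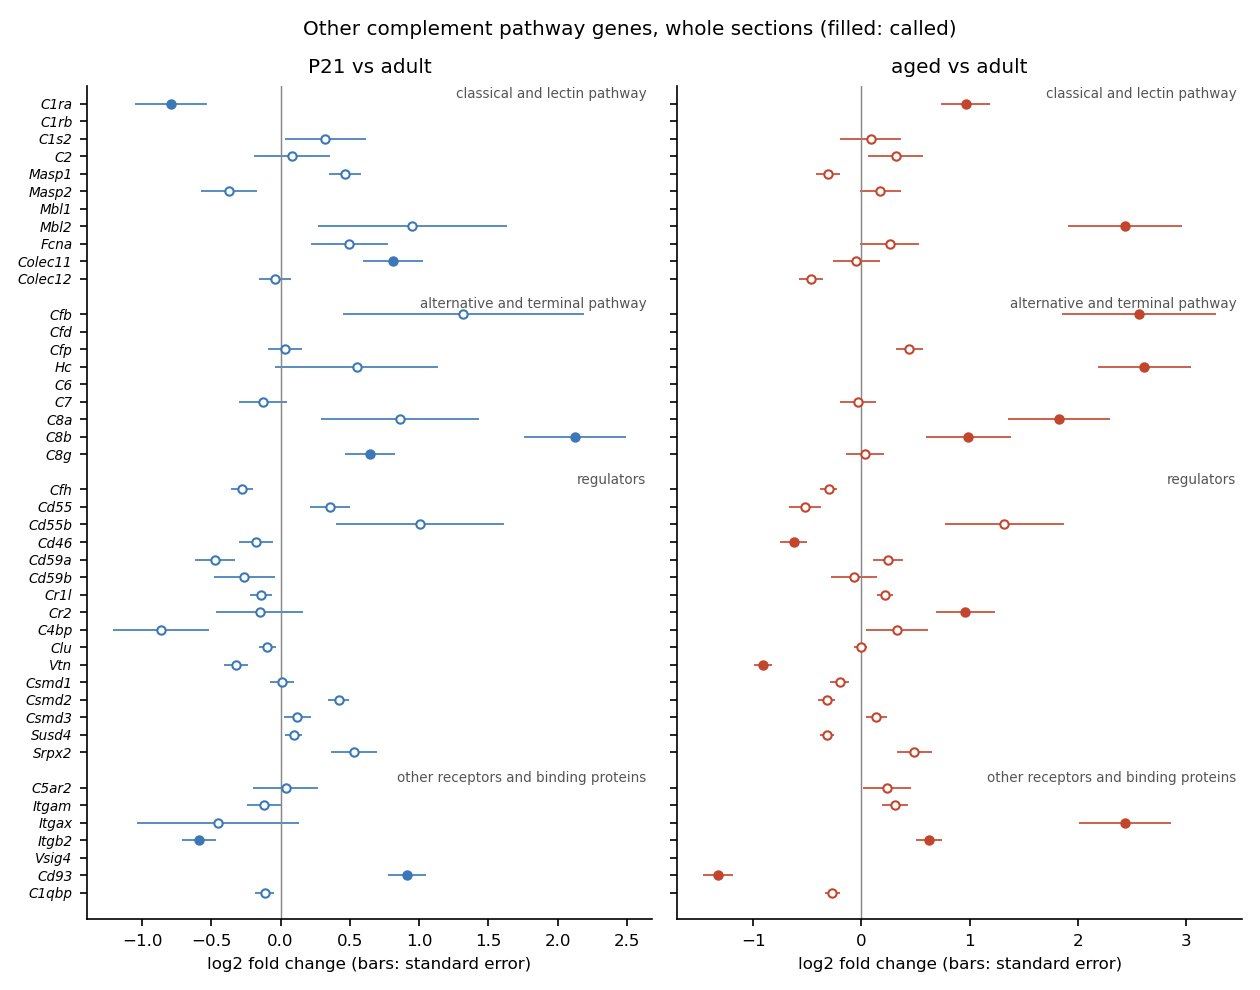
Log2 fold change with standard error of the other tested complement genes over whole sections, by list, for P21 vs adult and aged vs adult, with filled points for called genes. Genes with 3 or fewer UMIs in either age of a comparison are left blank. Both comparisons are against adult, so opposite signs mean a course in one direction with age. Cd93 (0.91 and −1.33) fell and Itgb2 (−0.59 and 0.63) rose from P21 through adult to aged.

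Across the 36 sums of 6 zones and 6 sections, centred within each section, the genes most like each member were sought among 11511 genes by Pearson's r of log2(CPM + 1), as a description without a test since the sums share sections. Among the genes most like C1qa were Ctss (r = 0.988) and Laptm5 (0.982), among those most like C1qb were Ctss (0.993) and Tyrobp (0.980), and among those most like C1qc were Ctss (0.991) and Laptm5 (0.978), all of them genes of microglia. C3ar1 came closest to Fcer1g (0.955), Tyrobp (0.945) and Inpp5d (0.938). C4b came closest to Cst3 (0.954), Aim2 (0.953) and Vim (0.943), and C3 to Vim (0.946), Fxyd1 (0.940) and Cyba (0.935). C5ar1 and Serping1 had weaker partners, led by Myo1f (0.892) and by St5 and Sat2 (0.899 each). Among the members, the C1q chains had r of 0.985 to 0.989 with each other, and C4b had 0.926 with C1qa.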

How the data were processed

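Sections of 6 mouse brains were profiled, 2 each at P21, 12 to 15 weeks and 28 months. The authors deposited raw UMI counts of each gene in each spot, made with Space Ranger on the mm10 build. Per the file headers, version 2.0.0 was run on P21 and adult sections and 3.1.1 on aged ones, while the submitters' processing notes name 2.1.0 and Seurat 5.1.0. The deposited Moran's I score per gene comes from Space Ranger. The study's minimum of 250 genes and 500 UMIs per spot left 20336 spots.

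Zones were rebuilt because spot labels were not used here. Clustering used 3000 variable genes, 10 principal components and 20 neighbours. All members, the other complement lists and the microglial and astrocyte lists, 89 genes in the files, were kept out. The oligodendrocyte list was not kept out, and its genes were markers of the FT panel. Leiden clustering (leidenalg 0.10.2, resolution 0.3) gave 14 clusters, named by marker panels into 9 zones. Assigning each spot by marker score alone gave 75.1% of named spots the same zone. CA3 was left out, since P21 replicate 2 had 17 spots against a minimum of 20.

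UMI sums were fitted with edgeR 4.0.16 (TMM, filterByExpr, glmQLFit, glmQLFTest) on all 6 sections with age as the only term, and the 36 zone sums with zone by age and section as a block. Sections are the replicates, and both comparisons share the adult sections. Standard errors are the size of the log2 change over the square root of F. On simulated counts of aged vs adult, 50 genes were given a 2-fold change. Of these, 74% were called over whole sections (among 18104 genes) and 92% in FT (among 13722 genes). Alternatives were DESeq2 1.42.0, library size scaling, no filter, the study's detection criteria, a replicate block, each section left out, other zones, and thinning. The likeness rule took the 3 genes of highest r with a mean of at least 5 CPM. Some of the genes it took are not reported here. Named pathway genes are those called over whole sections. Named glial genes are among the 4 of smallest adjusted p of their list. The members and lists were chosen with earlier results of these data known. Gene coordinates are from GENCODE vM21 on GRCm38, where 8 of 8 members matched. Replicate numbers did not pair the sections, with correlations of deviations of 0.0214, −0.142 and −0.0348.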

Additional observations from a re-analysis of the deposited data

Results flagged for a closer look

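The age change of several members differed between the 6 large zones by a test of the zone-by-age terms (edgeR F-test with section as a block, Benjamini-Hochberg over all genes tested). In aged vs adult the adjusted p was 1.09e-12 for C1qa, 6.13e-10 for C1qb, 2.84e-12 for C1qc, 0.0121 for C3, 1.9e-10 for C4b, 4.03e-06 for C3ar1 and 0.0188 for Serping1. In P21 vs adult it was 0.0129 for C1qa, 0.0154 for C1qb, 0.00383 for C1qc and 0.00527 for C4b. A share of 38.6% and 9.85% of all genes passed the same tests. Groups of 2 sections are too small to test a single section for standing apart.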

How the results depend on the processing

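Of 950 alternative values of the 69 member values printed, 857 kept direction and side of the threshold, 89 lost the call, 1 gained it and 3 reversed. Serping1 reversed over whole sections in P21 vs adult when thinned to the lowest total (−0.00959, from 0.02), ranged there from −0.12 without adult replicate 2 to 0.16 without adult replicate 1, and reversed in aged FT under per-spot scaling (−0.11). Of 1121 alternatives of 77 values not called, 74 reversed and 43 gained a call. The causes were not tested.

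Under the study's detection criteria, which test fewer genes, 3 members instead of 5 were called in aged whole sections and 5 instead of 8 in FT against other zones. The 5 zone calls of P21 vs adult became 8 with no filter, with zones by marker score and with per-spot scaling. Without any 1 section they ranged from 1 to 8, and the 4 zone-by-age differences of P21 vs adult from 0 to 4, with 0 by marker-score zones. In aged vs adult the 37 zone calls ranged from 26 to 40, the 7 zone-by-age differences from 5 to 7 and whole-section calls without a section from 5 to 6. With a replicate block, although the numbers do not pair the sections, zone calls were 8 at P21 and 35 in aged mice, and whole-section calls stayed 1 and 5. Thinning to 3000 UMIs gave C4b in 34.2% of aged spots instead of 43.1%, and FT by marker score gave C4b 474 CPM at 1 step instead of 716. Calls over all genes were 1460 in P21 vs adult and 571 under the study's criteria (984 and 949 without P21 replicates 1 and 2), and 5148 in aged vs adult and 1017. Members at low counts limit the rest: C3 in CTX had 11 and 15 aged UMIs.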
